A study of Mus musculus with 6 samples.

Results

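The Fc receptor genes of mouse peritoneal macrophages are described here across a knockout of 2 microRNAs and across LPS treatment and tolerance. They were chosen by symbol: Fcgr1, Fcgr2b, Fcgr3, Fcgr4, Fcer1g and Fcgrt, 6 of the 23699 rows in each deposited table, and all 6 were found and passed the filter on low values. Poly-A RNA of peritoneal macrophages, phagocytes of the abdominal cavity, was sequenced from C57Bl/6 mice. The mice were hemizygous for a deletion of the X-linked microRNA genes miR-221 and miR-222, labelled miR-221/222 -/Y (KO), or were wildtype (WT). How the deletion was made and in which cells is not given in the sources used here. Cells of each genotype were naive (untreated), were given 1000 ng/ml LPS for 4 h, or were tolerized, which meant 10 ng/ml LPS for 15 h, a wash, a rest of 2 h and then the high dose of 1000 ng/ml for another 4 h. LPS, an outer membrane component of Gram-negative bacteria, is sensed by Toll-like receptor 4, and tolerance is the altered response of cells to a repeated dose. All cells were kept in the same serum-containing medium, and each of the 6 groups was 1 library. Whether libraries came from separate animals or cultures, or from pooled animals, is not stated, so p-values measure only the spread between these samples.

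Fc receptors bind the constant region of antibodies and link them to immune cells. In mice, Fcgr1 encodes the high-affinity IgG receptor FcγRI, while Fcgr3 (FcγRIII) and Fcgr4 (FcγRIV) encode activating receptors of lower affinity; these 3 need the γ chain encoded by Fcer1g, whose cytoplasmic ITAM recruits the kinase Syk to start phagocytosis and cytokine release. Fcgr2b encodes FcγRIIB, the inhibitory IgG receptor, whose ITIM recruits the phosphatase SHIP1 (Inpp5d). Fcgrt encodes the heavy chain of FcRn, which pairs with β2-microglobulin, binds IgG in acidic endosomes and returns it to the cell surface.

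Values are FPKM, which divide a gene's fragments by its transcript length in kilobases and by the library's mapped fragments, and since they are per length they can be compared between genes. Each value came with a deposited interval that covers counting error only. The intervals implied about 17.6 to 24.9 M fragments per library and reached a median of 5.03% to 5.97% to either side for genes at 10 FPKM or more. All 7 macrophage markers (Emr1, Csf1r, Cd68, Itgam, Mertk, Cd14 and Lyz2) were at 1 FPKM or more in every library. Their sum, most of it Lyz2, was 39419 (naive), 18790 (LPS) and 11512 (tolerized) FPKM in KO macrophages and 48942, 23531 and 17564 FPKM in WT macrophages. The all-gene median moved with condition: it was -0.76 on the log2 scale for LPS against naive cells, 0.51 for tolerized against LPS cells and -0.22 for tolerized against naive cells. These shifts were about 0 after dividing each library by its median ratio to a common profile, called rescaling below, and each call that rescaling ends is named beside its value.

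The 6 genes covered a range from a few FPKM to the most abundant transcripts of the cell. Fcer1g was at 938.2 to 1883 FPKM and ranked between 25 and 51 of all genes, and Fcgr2b, at 402.8 to 1044 FPKM, ranked between 53 and 179. Fcgr3 was about as abundant as Fcgr2b in KO naive cells, above it in WT naive cells and far below it in the other 4 libraries. Fcgr1, Fcgr4 and Fcgrt were the low members, at 51.5 FPKM or less outside the KO tolerized library. Between the highest and the lowest library, Fcgr1 differed 35.6-fold, Fcgr4 30.1-fold, Fcgr3 10.2-fold, Fcgrt 9.83-fold, Fcgr2b 2.59-fold and Fcer1g 2.01-fold. Low RNA in these bulk samples can come from fewer cells of a type or from less RNA per cell, and the 2 cannot be told apart.

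**Figure D1:**
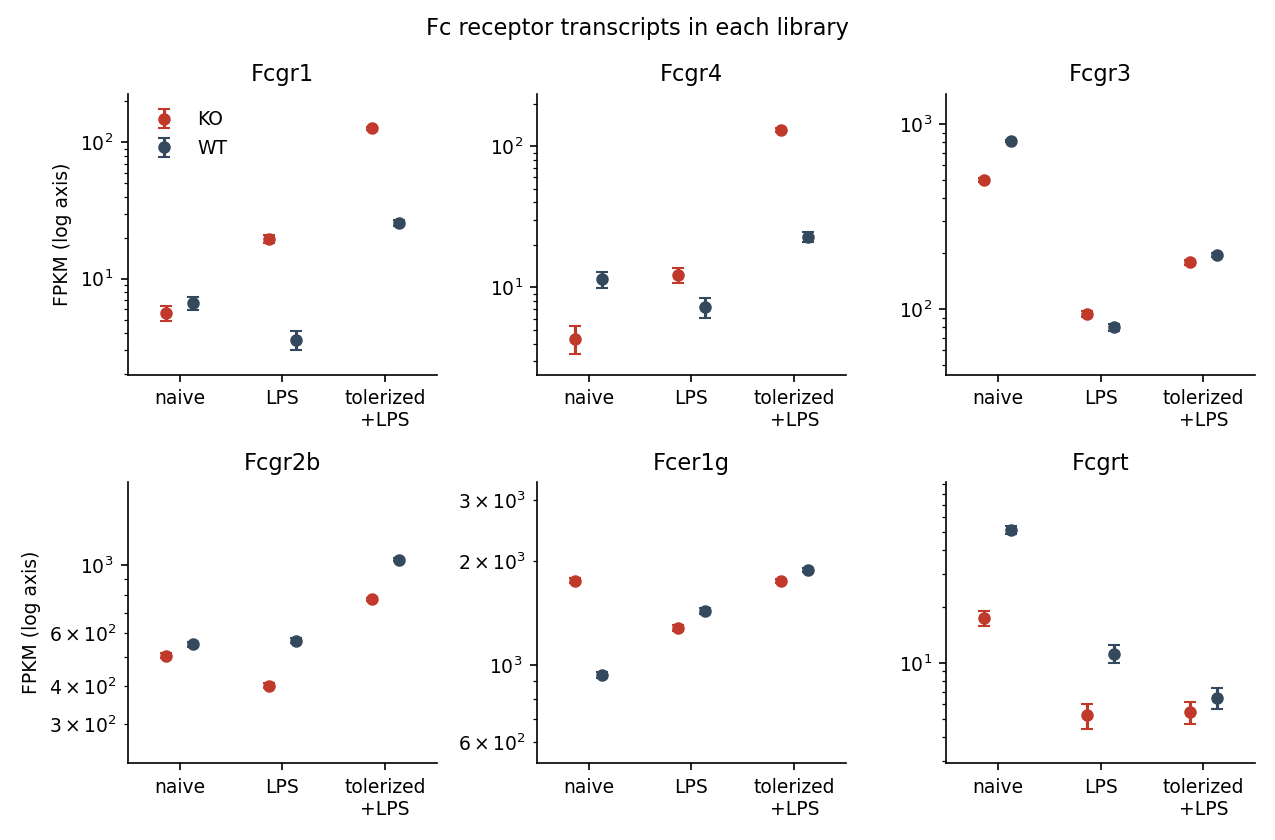
FPKM (log axis) of each Fc receptor gene in the 6 libraries, with the deposited interval of each value as a bar; there is 1 library per group and no replicate error. Fcgr1 and Fcgr4 were highest in the KO tolerized library, at 127 and 130.9 FPKM, while Fcgr3 and Fcgrt were highest in the WT naive library, at 812.9 and 51.5 FPKM.

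Among the activating receptors, Fcgr1 and Fcgr4 were low in naive cells and highest after tolerization, and both were most abundant in the KO tolerized library. Fcgr1 (chromosome 3, 96086832 to 96097892 on mm9) had 5.62 (naive), 19.6 (LPS) and 127 (tolerized) FPKM in KO macrophages and 6.63, 3.56 and 25.8 FPKM in WT macrophages. As deposited, its levels ran from the KO tolerized library through WT tolerized, KO LPS, WT naive and KO naive to WT LPS. Of neighbours in this order, only the intervals of the WT naive and KO naive libraries overlapped. Fcgr4 (chromosome 1, 172949057 to 172959892) had 4.35 (naive), 12.2 (LPS) and 130.9 (tolerized) FPKM in KO macrophages and 11.4, 7.27 and 22.8 FPKM in WT macrophages. As deposited, both genes were higher with LPS than without it in KO cells and lower in WT cells (Fcgr4 differed by 0.10 in WT cells after rescaling), so the LPS groups and the naive groups overlapped. The tolerized libraries lay above all others for both genes as deposited. After rescaling this held for Fcgr4 but not for Fcgr1, which was at 28.2 FPKM in KO LPS and 23.5 FPKM in WT tolerized cells. The lowest Fcgr4 value, in KO naive cells, rested on an implied 79 fragments (interval 3.37 to 5.33 FPKM).

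The RefSeq promoters of these genes (GRCm38.p6, 250 bases before to 50 after the annotated start) are shown because the levels of Fcgr1 and Fcgr4 moved together and those of Fcgr3 did not. They were searched on both strands for GAS (TTCNNNGAA), an interferon response element, for an ISRE-like motif (GAAA, any 2 bases, GAAA), for the ETS core GAGGAA bound by the macrophage factor PU.1, and for an NF-kB-like motif. Capitals mark GAS, ISRE-like and PU.1-like matches, and TTCCTC is GAGGAA on the other strand.
Fcgr1, chr3:96293920-96294219, minus strand: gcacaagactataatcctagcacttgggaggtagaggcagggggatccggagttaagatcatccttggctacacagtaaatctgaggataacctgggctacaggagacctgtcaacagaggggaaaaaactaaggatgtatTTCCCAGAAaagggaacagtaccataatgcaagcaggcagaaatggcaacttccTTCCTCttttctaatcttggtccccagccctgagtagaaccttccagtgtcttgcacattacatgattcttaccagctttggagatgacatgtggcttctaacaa
Fcgr4, chr1:171018676-171018975, plus strand: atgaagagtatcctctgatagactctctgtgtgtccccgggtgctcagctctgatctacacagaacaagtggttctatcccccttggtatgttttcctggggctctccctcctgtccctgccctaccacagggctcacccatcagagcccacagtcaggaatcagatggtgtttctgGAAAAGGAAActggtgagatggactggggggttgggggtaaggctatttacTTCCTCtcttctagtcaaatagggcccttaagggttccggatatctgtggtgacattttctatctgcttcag
Fcgr3, chr1:171059354-171059653, minus strand: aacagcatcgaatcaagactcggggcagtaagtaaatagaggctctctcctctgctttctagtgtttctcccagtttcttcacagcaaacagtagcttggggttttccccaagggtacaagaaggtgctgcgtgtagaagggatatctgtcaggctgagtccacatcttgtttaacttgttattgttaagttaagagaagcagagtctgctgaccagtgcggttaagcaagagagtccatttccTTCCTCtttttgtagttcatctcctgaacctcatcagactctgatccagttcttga
The Fcgr1 promoter held a GAS match at positions -109 to -101 from the start and a PU.1-like match at -55 to -50. The Fcgr4 promoter held an ISRE-like match at -73 to -64 and a PU.1-like match at -22 to -17, and the Fcgr3 promoter a PU.1-like match at -6 to -1 with no GAS or ISRE-like match. GAS was found in 8.30% of 32851 RefSeq promoters of this length, the ISRE-like motif in 3.44% and the PU.1-like motif in 28.3%. The NF-kB-like motif, found in 50.8% of promoters, had matches in those of Fcgr3 (within -152 to -141) and Fcgr4 (within -152 to -142 and at -120 to -111). RefSeq also lists another Fcgr3 start nearby, whose promoter is not printed. Counted from that start, the PU.1-like match lies at -15 to -10 and the NF-kB-like matches lie within -161 to -150. The Fcgr2b and Fcer1g promoters held matches to that motif alone, the Fcgr1 promoter held no match to it, and the Fcgrt promoter held none of the 4 motifs. No GAS, ISRE-like or PU.1-like match overlapped another match. A match describes the letters of this window and is not a measured binding site.

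**Figure D2:**
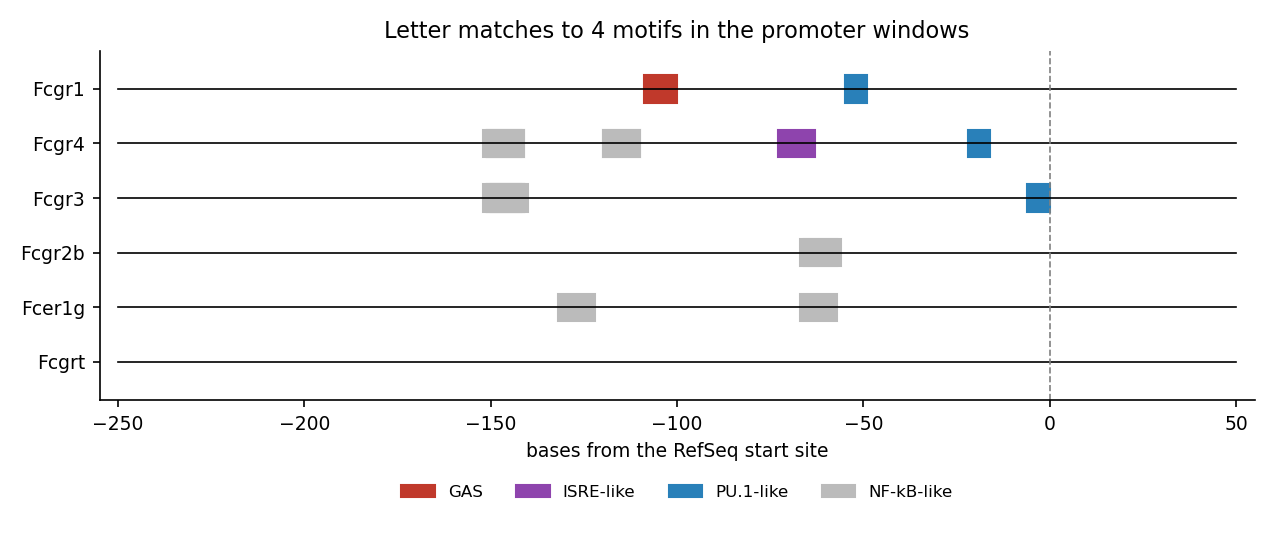
Positions of motif matches in the promoters of the 6 Fc receptor genes, in bases from the annotated start, with the motif given by colour. For Fcgr3 the promoter printed in the text is drawn. Fcgr1 had the single GAS match and Fcgr4 the single ISRE-like match, and PU.1-like matches lay close to the start in Fcgr1, Fcgr3 and Fcgr4.

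Conditions were tested with limma on log2(FPKM + 1) with genotype and condition as terms, Benjamini-Hochberg adjusted over 10139 genes, so a fold change understates that of low genes. In this fit Fcgr1 rose by 3.04 ± 0.59 on the log2 scale in tolerized against naive cells (SE, 2 libraries per condition; limma adjusted p = 0.0148), and Fcgr4 rose by 2.78 ± 0.76 (adjusted p = 0.0413). The difference was larger in KO than in WT cells for both: 4.27 in KO and 1.81 in WT for Fcgr1, and 4.62 in KO and 0.94 in WT for Fcgr4. Without the KO naive library, the difference of Fcgr1 was 1.83 (limma adjusted p = 0.00875). That of Fcgr4 was 1.39 without the KO naive library (limma adjusted p = 0.138) and 1.42 without the KO tolerized library (adjusted p = 0.0579); the call was also lost without either LPS library, at adjusted p = 0.0639 without KO LPS and 0.0608 without WT LPS. Without any filter on low values neither gene was called (limma adjusted p = 0.0709 for Fcgr1 and 0.134 for Fcgr4), and fits with condition as the sole term gave 0.0514 and 0.05003. Over the 15 fits run, Fcgr1 was called in 13 and Fcgr4 in 8.

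Tolerized cells were also above cells given LPS once. Fcgr1 rose by 2.60 ± 0.59 (SE, 2 libraries per condition; limma adjusted p = 0.0187) and Fcgr4 by 2.42 ± 0.76 (adjusted p = 0.0464). For Fcgr1 the difference was 2.63 in KO and 2.56 in WT cells, while for Fcgr4 it was 3.32 in KO and 1.53 in WT cells. After rescaling the same differences were 2.07 (limma adjusted p = 0.0649) and 1.88 (adjusted p = 0.127), which ended both calls. Leaving out the KO LPS or the WT LPS library ended them too, at limma adjusted p = 0.0567 and 0.103 for Fcgr1 and 0.164 and 0.150 for Fcgr4. For Fcgr4 the difference was 1.06 without the KO tolerized library (limma adjusted p = 0.137) and 3.79 without the WT tolerized library (adjusted p = 0.00051). Over the 15 fits, Fcgr1 was called in 10 and Fcgr4 in 6.

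For LPS against naive cells, neither gene passed the test. The fitted difference was 0.45 ± 0.59 for Fcgr1 (SE, 2 libraries per condition; limma adjusted p = 0.531) and 0.36 ± 0.76 for Fcgr4 (adjusted p = 0.698). These averages joined opposite values of the genotypes: Fcgr1 differed by 1.64 in KO and by -0.74 in WT cells, and Fcgr4 by 1.31 in KO and by -0.59 in WT cells. After rescaling, the WT differences were -0.11 for Fcgr1 and 0.10 for Fcgr4, while the KO ones were 2.43 and 2.07. Without the WT naive library both would have been called, at 1.66 (limma adjusted p = 0.00514) and 1.75 (adjusted p = 0.0387). Without the KO naive library the differences were -0.76 for Fcgr1 (limma adjusted p = 0.0519) and -1.03 for Fcgr4 (adjusted p = 0.162), and without the KO LPS library that of Fcgr1 was -0.13 (adjusted p = 0.902).

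Fcgr3 went the other way: it was the leading activating receptor of naive cells, and it fell with LPS. Fcgr3 (chromosome 1, 172981300 to 172989534) had 499.3 (naive), 94.0 (LPS) and 178.8 (tolerized) FPKM in KO macrophages and 812.9, 79.6 and 196.0 FPKM in WT macrophages. The 3 conditions did not overlap: both naive libraries were highest, both tolerized libraries in between and both LPS libraries lowest, with every interval apart from the next. Fcgr3 fell by 2.87 ± 0.31 in LPS against naive cells (SE, 2 libraries per condition; limma adjusted p = 0.00079) and fell by 1.76 ± 0.31 in tolerized against naive cells (adjusted p = 0.0111). Both calls were made in all 15 fits, with log2 differences of -3.24 to -2.05 and of -2.14 to -1.38. In tolerized against LPS cells Fcgr3 rose by 1.11 ± 0.31 (SE, 2 libraries per condition; limma adjusted p = 0.0336), with 0.92 in KO and 1.29 in WT cells.

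That last rise was not called after rescaling, at 0.53 (limma adjusted p = 0.257). It was also lost without any one of the 4 libraries compared, at limma adjusted p = 0.0745 without KO LPS, 0.217 without WT LPS, 0.151 without KO tolerized and 0.110 without WT tolerized cells, and it was called in 9 of the 15 fits. Fcgr3 and Fcgr2b share sequence, since 166 of the 1298 windows of 50 bases in the longest Fcgr3 transcript also occur in that of Fcgr2b, and how the authors' counting treated such reads is not stated. Of the 3495 windows of Fcgr2b, 397 occur in a transcript of some other gene. The values of both genes are uncertain to that extent. None of the 6 gene loci overlapped another row of the tables.

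The inhibitory receptor gene Fcgr2b kept a high level in every library. Fcgr2b (chromosome 1, 172890689 to 172906202) had 505.4 (naive), 402.8 (LPS) and 773.8 (tolerized) FPKM in KO macrophages and 550.1, 566.1 and 1044 FPKM in WT macrophages. As deposited, the tolerized libraries were above the other 4, and the naive and LPS libraries overlapped. Neither held after rescaling. KO and WT cells were then at 396.8 and 424.9 FPKM naive, 578.3 and 742.4 FPKM with LPS, and 716.5 and 950.2 FPKM tolerized. It did not pass the test in tolerized against LPS cells (0.91 ± 0.31; SE, 2 libraries per condition; limma adjusted p = 0.0578) or in tolerized against naive cells (0.77 ± 0.31; adjusted p = 0.118). Of the 15 fits, 4 called the first of these differences and 1 the second. In LPS against naive cells the difference was -0.14 ± 0.31 (SE, 2 libraries per condition; limma adjusted p = 0.707) as deposited and 0.67 after rescaling (adjusted p = 0.0980), so its sign depends on the scaling. Fcgr2b is also the Fc receptor of B cells and is known in mast cells. All 10 B cell markers were detected, and their summed level was 595.7 (naive), 285.1 (LPS) and 635.5 (tolerized) FPKM in KO macrophages and 797.5, 329.8 and 510.3 FPKM in WT macrophages. That sum, which includes Cd79a, Cd79b, Ms4a1 and Fcrla, was lowest in the LPS libraries, and its part in the Fcgr2b level was not tested.

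Fcer1g, the γ chain that the activating receptors share, was the most abundant member in every library. Fcer1g (chromosome 1, 173159703 to 173164480) had 1758 (naive), 1281 (LPS) and 1752 (tolerized) FPKM in KO macrophages and 938.2, 1435 and 1883 FPKM in WT macrophages. As deposited, the lowest library was WT naive and the highest WT tolerized, and the conditions overlapped. This order depends on the scaling. After rescaling, KO and WT cells were at 1839.5 and 1881.5 FPKM with LPS, 1622 and 1713.6 FPKM tolerized, and 1379.8 and 724.7 FPKM naive, with no overlap of conditions. No condition difference passed the test: it was 0.08 ± 0.44 in LPS against naive cells (SE, 2 libraries per condition; limma adjusted p = 0.888), 0.42 ± 0.44 in tolerized against LPS cells (adjusted p = 0.468) and 0.50 ± 0.44 in tolerized against naive cells (adjusted p = 0.441). After rescaling, the tolerized against LPS difference was -0.16. The ratio of Fcer1g FPKM to the summed FPKM of Fcgr1, Fcgr3 and Fcgr4 was 3.45 (naive), 10.2 (LPS) and 4.01 (tolerized) in KO macrophages and 1.13, 15.9 and 7.70 in WT macrophages, so γ chain RNA was above that of its IgG receptor partners in all 6 libraries.

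Fcgrt, the FcRn heavy chain gene, was lower after LPS in both genotypes. Fcgrt (chromosome 7, 52348363 to 52359192) had 17.4 (naive), 5.24 (LPS) and 5.45 (tolerized) FPKM in KO macrophages and 51.5, 11.2 and 6.49 FPKM in WT macrophages. As deposited, both naive libraries lay above the other 4, and the intervals of WT tolerized, KO tolerized and KO LPS cells overlapped in turn. After rescaling, KO naive cells (13.7 FPKM) were below WT LPS cells (14.6 FPKM). Fcgrt fell by 1.83 ± 0.32 in LPS against naive cells (SE, 2 libraries per condition; limma adjusted p = 0.00348) and by 2.16 ± 0.32 in tolerized against naive cells (adjusted p = 0.007), and both calls were made in all 15 fits. The macrophage marker sum, most of it Lyz2, was also highest in the naive libraries. So was Csf1r, at 721.9 (naive), 200.8 (LPS) and 221.4 (tolerized) FPKM in KO macrophages and 895.0, 147.2 and 256.7 FPKM in WT macrophages. The markers did not move as a set. In tolerized against naive cells of both genotypes Csf1r, Cd68, Mertk and Lyz2 were lower, and Emr1, Itgam and Cd14 were higher. Emr1 was at 392.7 (naive), 283.1 (LPS) and 841.7 (tolerized) FPKM in KO macrophages and 431.2, 278.0 and 921.9 FPKM in WT macrophages. The part of these markers in the falls of Fcgr3 and Fcgrt was not tested. Fcgrt differed by -0.33 ± 0.32 between tolerized and LPS cells (SE, 2 libraries per condition; limma adjusted p = 0.441), and by 0.18 without the WT tolerized library. Its partner gene B2m was at 7842 (naive), 6760 (LPS) and 10602 (tolerized) FPKM in KO macrophages and at 3956, 5568 and 7381 FPKM in WT macrophages, and no condition difference of it passed the test.

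**Figure D3:**
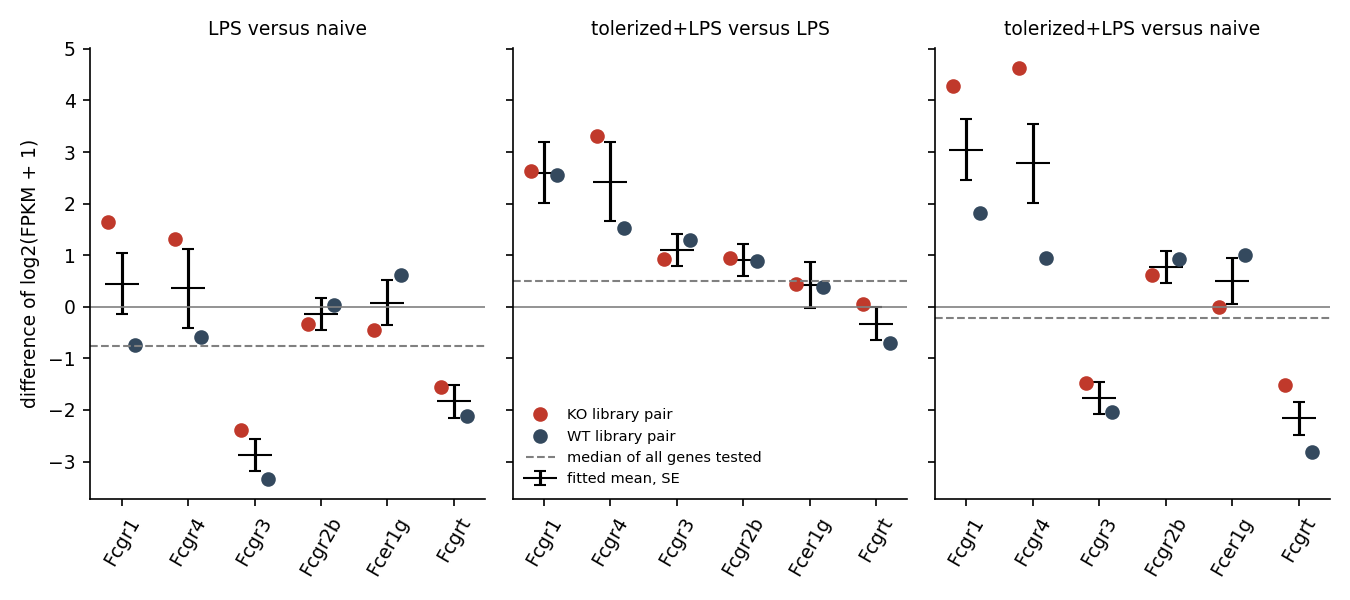
Log2 differences of FPKM + 1 between conditions for each Fc receptor gene, from the limma fit with its SE and from the KO and the WT library pair alone. Fcgr3 and Fcgrt lie below 0 in LPS against naive cells in both genotypes, while Fcgr1 and Fcgr4 lie above 0 in KO and, as deposited, below 0 in WT cells (Fcgr4 was at 0.10 in WT cells after rescaling).

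Counted together, 2 of the 6 genes fell and none rose in LPS against naive cells, where 54.4% of all tested genes fell and 8.74% rose, so that count is near the background. The median of the 6 was -0.03, against -0.76 over all genes. Among tolerized against LPS differences, 3 of 6 rose and none fell, against 36.8% of all genes that rose and 4.32% that fell, and after rescaling none of the 6 was called. In tolerized against naive cells 2 of 6 rose and 2 fell, against 7.41% and 19.7% of all genes. The median of the 6 was 1.01 against 0.51 over all genes in tolerized against LPS cells, and 0.63 against -0.22 in tolerized against naive cells.

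The balance of activating and inhibitory IgG receptor RNA differed between conditions and genotypes. The summed FPKM of Fcgr1, Fcgr3 and Fcgr4 over that of Fcgr2b was 1.01 (naive), 0.312 (LPS) and 0.564 (tolerized) in KO macrophages and 1.51, 0.160 and 0.234 in WT macrophages. The ratio was highest in naive and lowest in LPS cells of each genotype, and it was lower in KO than in WT naive cells but higher in KO than in WT LPS and tolerized cells. A ratio within a library does not change with its scaling. Fcgr3 over Fcgr2b alone was 0.231 in KO tolerized and 0.188 in WT tolerized cells, whereas Fcgr4 over Fcgr2b was 0.169 in KO tolerized and 0.0219 in WT tolerized cells.

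Shares of the 4 IgG receptors show the same. Fcgr2b made up 49.8%, 76.2% and 63.9% of their FPKM in naive, LPS and tolerized KO macrophages and 39.8%, 86.2% and 81.0% in WT macrophages. Fcgr3 made up 49.2%, 17.8% and 14.8% in the KO cells and 58.9%, 12.1% and 15.2% in the WT cells, in the same order. Fcgr1 and Fcgr4 took 10.5% and 10.8% in KO tolerized cells and 2.00% and 1.77% in WT tolerized cells. In naive cells of either genotype each of them was below 1%, at 0.554% and 0.429% in KO and 0.480% and 0.827% in WT cells. Each share is from 1 library and has no replicate error.

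**Figure D4:**
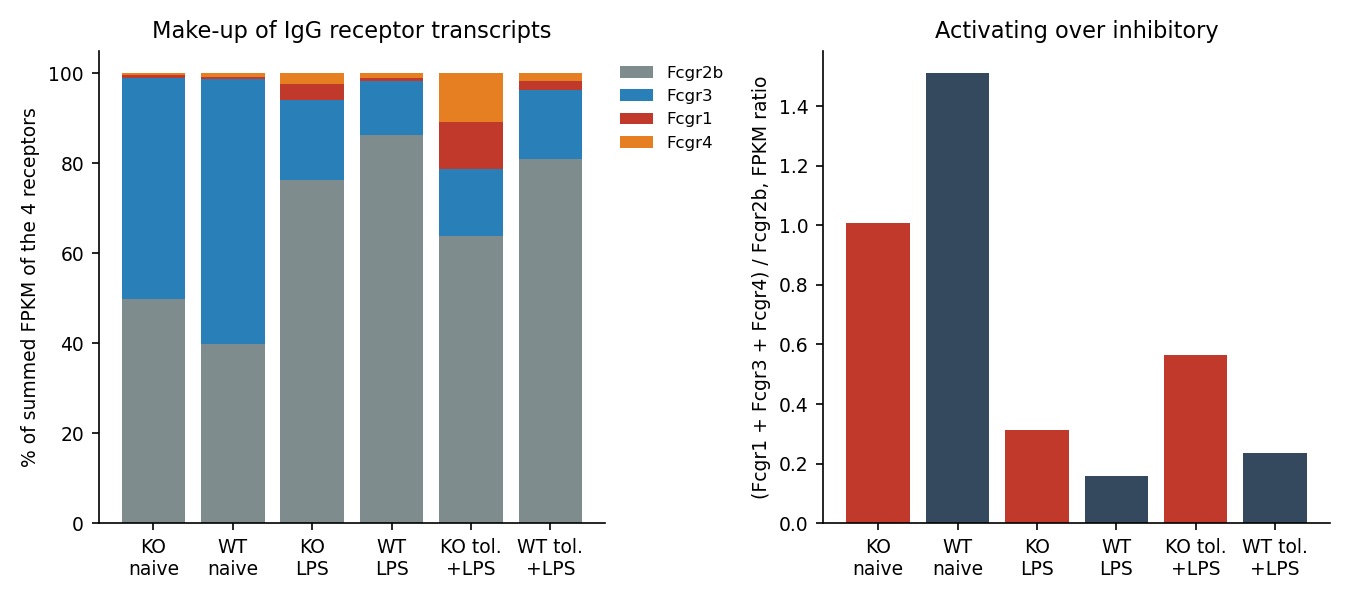
Share (%) of Fcgr1, Fcgr2b, Fcgr3 and Fcgr4 in their summed FPKM in each library, stacked to 100%. Fcgr1 and Fcgr4 together are widest in the KO tolerized library (10.5% and 10.8%), and Fcgr3 is widest in the WT naive library (58.9%).

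Whether the knockout changed Fc receptor RNA was asked in 2 ways, over all conditions and within each. Over all conditions, none of the 6 genes passed the test, and none of the 10139 genes did (0% higher and 0% lower), although 707 had an unadjusted p under 0.05. At most 1 gene was called under any other filter, scaling or model and without 1 of the naive or LPS libraries, and 233 and 230 without the KO or the WT tolerized library. Fcgr1 differed by 1.41 ± 0.48 between KO and WT (SE, 3 libraries per genotype; limma adjusted p = 0.596) and Fcgrt by -0.90 ± 0.26 (adjusted p = 0.526). The other differences were 0.64 ± 0.62 for Fcgr4, -0.35 ± 0.25 for Fcgr2b, 0.21 ± 0.36 for Fcer1g and -0.20 ± 0.25 for Fcgr3. Fcgrt was lower in KO than in WT cells in 3 of 3 conditions, but the intervals of the tolerized libraries overlapped (5.45 FPKM in KO and 6.49 FPKM in WT). Without either tolerized library its difference was -1.24, and these were the 2 of 15 fits in which Fcgrt was called.

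Within a condition each genotype was 1 library, so differences are given by size alone: at least 2-fold on the log2(FPKM + 1) scale among genes that reached 2 FPKM in 1 of the libraries or both. In tolerized cells, Fcgr4 was 5.73-fold higher in KO than in WT (2.47 on the log2 scale), and 12 of 9695 genes differed by more in that direction. Fcgr1 was 4.92-fold higher (2.25), with 20 genes above it. These were 2 of 6 members past the size rule, against 1.81% of all genes higher and 0.774% lower. The other 4 genes differed by -0.43 to -0.10.

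In cells given LPS once, Fcgr1 was 5.51-fold higher in KO than in WT (2.18 on the log2 scale), the single member past the size rule, against 4.19% of all genes higher and 3.05% lower, with 36 of 8645 genes above it. Fcgr4 was at 0.68 and Fcgrt at -0.96. In naive cells the members past the size rule were 2 and both were lower in KO than in WT, against 3.12% of all genes lower and 3.95% higher: Fcgrt by 2.96-fold (-1.51) and Fcgr4 by 2.63-fold (-1.22). Fcer1g was 1.87-fold higher in KO naive cells (0.90) and Fcgr3 differed by -0.70. Rescaling moved the KO against WT differences of Fcgr1 and Fcgr4 little, to 2.27 and 2.49 in tolerized cells.

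**Figure D5:**
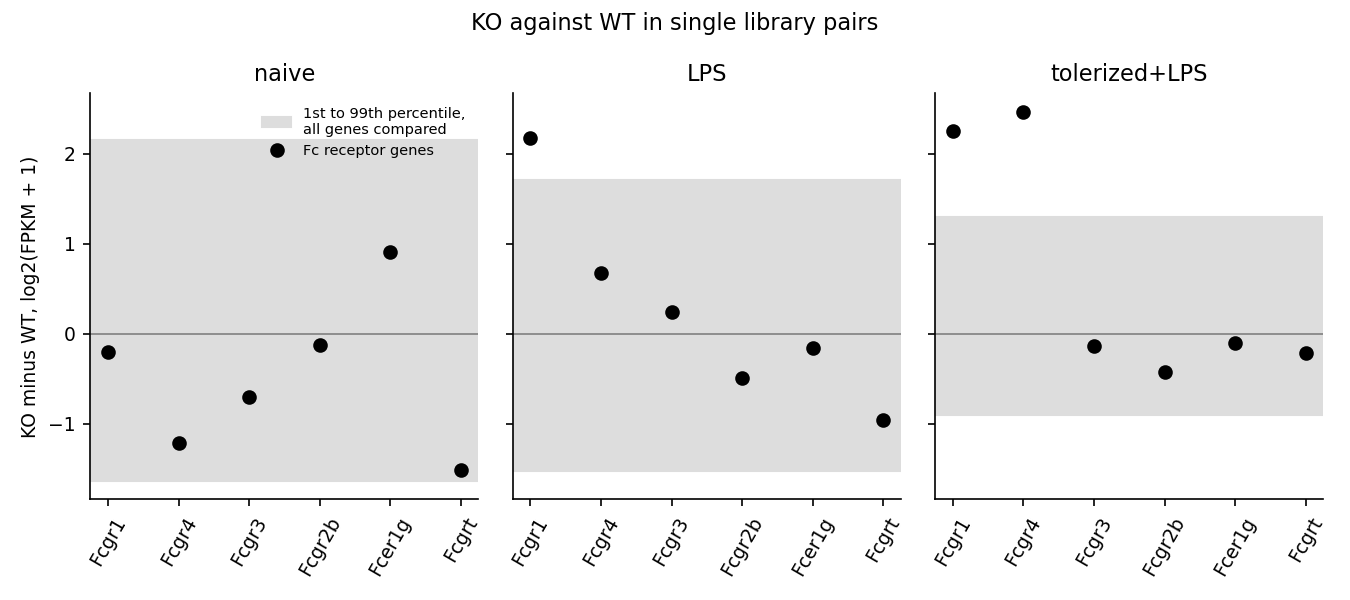
Log2 difference of FPKM + 1, KO minus WT, for each Fc receptor gene within naive, LPS and tolerized cells, each from 1 library pair, beside the range between the 1st and 99th percentiles of all genes. Fcgr1 and Fcgr4 lie above that range in tolerized cells (2.25 and 2.47, against an upper end of 1.30), and Fcgr1 does in LPS cells (2.18 against 1.71).

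The change from naive to tolerized cells also differed in size between the genotypes. For Fcgr4 it was larger by 3.68 on the log2 scale in KO than in WT cells, and 9 of 10139 genes had a larger such difference. For Fcgr1 it was larger by 2.46, with 49 genes above it. For LPS against naive cells the corresponding values were 2.38 for Fcgr1, with 18 genes above it, and 1.89 for Fcgr4, with 55 above it. These comparisons share libraries, and with 1 library per group the differences had no test. Fcgr4 is also known in neutrophils and monocytes: the neutrophil markers summed to 206.3 (naive), 161.9 (LPS) and 359.9 (tolerized) FPKM in KO macrophages and to 137.2, 132.8 and 227.8 FPKM in WT macrophages, nearly all of it S100a8 and Mmp8. From naive to tolerized cells S100a8 rose from 165.9 to 341.4 FPKM in KO and from 65.2 to 191.1 FPKM in WT macrophages. Mmp8 fell from 33.4 to 11.3 FPKM in KO and from 69.6 to 27.0 FPKM in WT macrophages, and Retnlg was also lower. Of the granule genes, Camp was at 4.30 (naive), 4.86 (LPS) and 6.95 (tolerized) FPKM in KO macrophages and at 0.738, 5.13 and 8.85 FPKM in WT macrophages, while Ltf, Elane and Mpo were below 1 FPKM in every library. Ngp and S100a9 were listed at 0 in all 6 libraries, which can be a failed estimate.

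Markers of other cells that carry Fc receptors were also measured. Of 10 mast cell markers 8 or 9 were at 1 FPKM or more in each library, and their sum was 137.7 (naive), 148.1 (LPS) and 239.4 (tolerized) FPKM in KO macrophages and 152.1, 221.1 and 288.8 FPKM in WT macrophages. Part of that was Hdc, at 1.08 (naive), 33.3 (LPS) and 36.3 (tolerized) FPKM in KO macrophages and 1.20, 49.0 and 76.8 FPKM in WT macrophages. Mcpt4, Cma1 and Tpsb2 were also higher in tolerized than in naive cells of both genotypes, and Cpa3 was lower. In KO cells Mcpt4, Cma1 and Tpsb2 were lower with LPS than without it. Of 7 dendritic cell markers 2 or 3 reached 1 FPKM, with sums of 18.1 to 43.5 FPKM in KO and 47.7 to 62.0 FPKM in WT cells. Cd209a made up most of the gap in naive and LPS cells, at 0.0898 (naive), 0 (LPS) and 0.0314 (tolerized) FPKM in KO macrophages and 36.9, 11.7 and 0.0638 FPKM in WT macrophages. It was highest in the WT naive library, where Fcgr4 and Fcgrt were also higher than in the KO naive library, and its part in those values was not tested. T and NK cell markers summed to 3.14 to 9.93 FPKM in KO and 7.31 to 11.9 FPKM in WT cells. The mast cell and neutrophil sums were higher in tolerized than in naive cells of both genotypes, but not every marker was. Mmp8, Retnlg and Cpa3 were among those lower in both genotypes. The part of these sums in the Fc receptor values was not tested.

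The microRNAs deleted in the KO share their seed, bases 2 to 8, printed in capitals below and taken from RefSeq (GRCm38.p6, chromosome X, minus strand).
mmu-miR-221-3p: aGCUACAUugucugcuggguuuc
mmu-miR-222-3p: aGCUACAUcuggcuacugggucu
Its complementary site, ATGTAGC, was searched in the longest annotated 3′ UTR of each gene. None of the 6 Fc receptor genes held it, nor the shorter match to bases 2 to 7, in UTRs of 256 to 2397 bases. Over 21153 genes, 9.74% held the full site and 29.0% the shorter one. The search describes these UTR models and measured no binding.

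Beyond the receptors, genes of the signalling that activating Fc receptors start were also measured. Of 34 tested ITAM signalling genes, 16 fell and 3 rose in LPS against naive cells, beside 54.4% and 8.74% of all genes, and their median of -0.76 was that of all genes. After rescaling 9 fell and 7 rose. Card9, an adaptor that links Syk to NF-kB, fell by 3.10 ± 0.19 (SE, 2 libraries per condition; limma adjusted p = 0.00036), and the adaptor gene Lat2 and the exchange factor gene Vav1 fell by 2.68 ± 0.23 and 2.46 ± 0.22. The kinase gene Src rose by 2.09 ± 0.68 (limma adjusted p = 0.0362) and the adaptor gene Lcp2 by 1.72 ± 0.26. Src was at 27.8 FPKM in KO naive and 2.43 FPKM in WT naive cells. Syk itself, at 111.4 to 258.4 FPKM, was called in none of the comparisons. For tolerized against LPS cells, 13 of the 34 rose and 1 fell (5 and 3 after rescaling), beside 36.8% and 4.32% of all genes, led by Vav1 (2.22 ± 0.22) and Card9 (2.00 ± 0.19). In tolerized against naive cells 2 rose and 6 fell (3 and 3 after rescaling), beside 7.41% and 19.7% of all genes, with the Src-family kinase gene Fgr at -2.85 ± 0.39 and Lat2 at -1.61 ± 0.23.

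Of 18 tested inhibitory signalling genes, 12 fell and none rose in LPS against naive cells (9 and 3 after rescaling), where 54.4% of all genes fell and 8.74% rose, and their median was -1.37 against -0.76 over all genes. Inpp5d, the phosphatase gene SHIP1 that FcγRIIB recruits, was at 56.2 (naive), 4.23 (LPS) and 45.4 (tolerized) FPKM in KO macrophages and at 95.5, 4.31 and 36.4 FPKM in WT macrophages. Both LPS libraries were far below the other 4. It fell by 3.82 ± 0.29 in LPS against naive cells (SE, 2 libraries per condition; limma adjusted p = 0.00043) and rose by 2.98 ± 0.29 in tolerized against LPS cells (adjusted p = 0.00692). Cd300a, an ITIM receptor gene, fell by 3.63 ± 0.44 in LPS against naive cells. Tolerized against LPS, 10 of the 18 rose and none fell (5 and none after rescaling), beside 36.8% and 4.32% of all genes, including the sialic acid receptor gene Siglece (3.01 ± 0.57; limma adjusted p = 0.0119). Tolerized against naive, 1 rose and 5 fell (1 and 4 after rescaling), beside 7.41% and 19.7% of all genes, with Cd300a at -3.72 ± 0.44 and Siglece at 2.68 ± 0.57.

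Other receptors that pair with the Fcer1g chain or a related adaptor differed among themselves. Of 11 tested, 1 rose and 2 fell in LPS against naive cells (3 and none after rescaling), 2 rose in tolerized against LPS cells (1 rose and 1 fell after rescaling), and 3 rose and 2 fell in tolerized against naive cells, as also after rescaling. The shares of all genes that rose and fell were 8.74% and 54.4%, 36.8% and 4.32%, and 7.41% and 19.7% in these comparisons, in the same order. Tarm1, a myeloid activating receptor gene, was at 15.0 (naive), 160.2 (LPS) and 372.8 (tolerized) FPKM in KO macrophages and at 1.66, 83.8 and 262.5 FPKM in WT macrophages, a rise of 4.17 ± 0.49 with LPS (SE, 2 libraries per condition; limma adjusted p = 0.00097) and of 5.59 ± 0.49 in tolerized against naive cells (adjusted p = 0.0023). Gp6, a collagen receptor gene best known in platelets, was at 1.95, 2.43 and 38.0 FPKM in naive, LPS and tolerized KO macrophages, while in WT macrophages it was listed at 0 in naive and LPS cells and at 13.5 FPKM in tolerized cells. Pilrb1, at 132.5 and 153.6 FPKM in KO and WT tolerized cells against 66.8 and 7.28 FPKM in KO and WT naive cells, rose by 2.60 ± 0.68 (limma adjusted p = 0.0365). Pira2, Pira6, Pilrb1 and Lilra6 belong to families of near-identical genes, and their values are uncertain.

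Of the related adaptor genes Tyrobp, Hcst and Cd247, the first pair fell after LPS, beside 54.4% of all genes, and Fcer1g did not pass the test. Tyrobp, which encodes DAP12, was at 2112 (naive), 784.9 (LPS) and 688.5 (tolerized) FPKM in KO macrophages and at 3297, 1304 and 858.5 FPKM in WT macrophages. It fell by 1.38 ± 0.37 in LPS against naive cells (SE, 2 libraries per condition; limma adjusted p = 0.0168) and fell by 1.78 ± 0.37 in tolerized against naive cells (adjusted p = 0.0174). The LPS call was lost after rescaling, at -0.57 (limma adjusted p = 0.206), and that of Hcst likewise. Fcer1g was above Tyrobp in the LPS and tolerized libraries of both genotypes and below it in the naive libraries of both. The difference between the changes of Tyrobp and Fcer1g was not tested.

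Among 9 tested receptors and proteins that bind immunoglobulin otherwise, 3 rose and 2 fell in LPS against naive cells (4 and 1 after rescaling), 4 rose and 2 fell in tolerized against LPS cells (1 and 2), and 5 rose and 2 fell in tolerized against naive cells (5 and 1). Over all genes, 8.74% rose and 54.4% fell, 36.8% rose and 4.32% fell, and 7.41% rose and 19.7% fell in the same 3 comparisons. Trim21, the cytosolic antibody receptor gene, was at 10.2 (naive), 87.0 (LPS) and 24.4 (tolerized) FPKM in KO macrophages and at 9.73, 63.3 and 14.4 FPKM in WT macrophages. It rose by 2.78 ± 0.23 with LPS (SE, 2 libraries per condition; limma adjusted p = 0.0005) and fell by 1.93 ± 0.23 in tolerized against LPS cells (adjusted p = 0.00716), so its highest level was in the LPS libraries, where Fcgr3 was lowest. Fcrl5 and Fcrla, genes of B cells, differed by 1.35 ± 0.20 and -2.28 ± 0.28 in LPS against naive cells. Of 6 FcRn partner and class I genes, Tapbp rose with LPS (0.92 ± 0.31; limma adjusted p = 0.0413), Calr and Pdia3 rose in tolerized against LPS cells (36.8% of all genes), which was lost after rescaling, and none was called in tolerized against naive cells.

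Of 12 tested interferon and lineage factors known to act on Fc receptor genes, 4 rose and 4 fell in LPS against naive cells (6 and 1 after rescaling), beside 8.74% and 54.4% of all genes. Stat2, a signal transducer of type I interferon receptors, was at 12.6 (naive), 106.4 (LPS) and 44.7 (tolerized) FPKM in KO macrophages and at 11.6, 86.6 and 31.4 FPKM in WT macrophages, so the 3 conditions did not overlap. Stat2 and Irf1 rose by 2.89 ± 0.21 and 2.47 ± 0.29 with LPS (SE, 2 libraries per condition; limma adjusted p = 0.00042 and 0.00094), and Cebpa, a myeloid lineage factor gene, fell by 3.64 ± 0.45. Tolerized against LPS, 2 rose and 2 fell (none and 4 after rescaling), beside 36.8% and 4.32% of all genes, with Irf1 at -2.53 ± 0.29 and Stat2 at -1.33 ± 0.21. Tolerized against naive, 3 rose and 2 fell (4 and 1 after rescaling), beside 7.41% and 19.7% of all genes, with Stat2 at 1.55 ± 0.21 and Cebpa at -3.18 ± 0.45. Sfpi1, the gene of PU.1, was at 178.9 to 311.8 FPKM and was not called in any comparison. In none of the 7 lists was a gene called between KO and WT.

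Over the 6 libraries, members on the same chromosome did not always vary together. Pearson's r of log2(FPKM + 1) was 0.94 between Fcgr1 (chromosome 3) and Fcgr4 (chromosome 1), 0.80 between Fcgr3 (chromosome 1) and Fcgrt (chromosome 7), and -0.17 between the neighbours Fcgr3 and Fcgr4; these values describe 6 libraries that share conditions, and carry no test. Among 7311 genes at 10 FPKM or more in a library, the 3 most like Fcgr1 were Smox (r = 0.98), P4ha1 (0.97) and Rnf141 (0.97), and those most like Fcgr4 were Klra2 (0.98), Pfkfb3 (0.97) and Ms4a6b (0.97). Ms4a6b was at 5.50 (naive), 8.14 (LPS) and 65.0 (tolerized) FPKM in KO macrophages and at 6.30, 7.61 and 13.1 FPKM in WT macrophages, so it too was highest in the KO tolerized library. Xpr1, Phka2 and Polr3gl were most like Fcgr3 (each r above 0.99), and C330021F23Rik, F630028O10Rik and Man2b1 were most like Fcgrt (0.99 each). Pold2, Hbs1l and Kpnb1 were most like Fcgr2b (0.99 each), and Psmd10, Dnmt3l and Sema4a most like Fcer1g (0.99, 0.99 and 0.97). After rescaling, Pfkfb3, Ms4a6b, Phka2, Kpnb1 and Psmd10 stayed among the 3 most alike of their member and the other 13 did not.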

How the data were processed

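Libraries of poly-A RNA were prepared with a TruSeq kit (per the labels' protocols) and run on a HiSeq2000 (per the design text). What the authors deposited for each library is a table of genes with FPKM and the bounds of an interval, per the file headers. The submitters' processing notes name bcl2fastq 1.8.4, TopHat, Cufflinks and the build mm9. Other versions, the annotation and strand handling are not given in these sources. The design text names triplicates, and whether they were pooled into the 1 library per group is not stated.

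Of 23699 rows, 349 not marked OK, 529 of symbols at more than 1 locus and 663 of small RNA genes or loci under 200 bases were left out, which left 22158. Values were analysed as log2(FPKM + 1). The 10139 genes that reached 2 FPKM in 2 libraries or more were fitted with limma 3.58.1 in R 4.3.3 (eBayes with trend, two-sided, terms for genotype and condition) and adjusted by Benjamini-Hochberg at 0.05. Residual degrees of freedom were 2, to which eBayes added 4.2, and an effect of 1 genotype alone counts as spread there. The fit was tested on simulated data with known changes. Fragments were implied from interval widths taken as 2 SE of a count. Rescaling used the median ratio to the geometric mean profile over 9623 genes. Promoters and microRNAs came from RefSeq tables and 3′ UTRs from the GRCm38 annotation, read by gene and not by moved coordinates. The planned comparison of protein sequences was not run.

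The members and gene lists were chosen with earlier results of these data known. Named genes were the members, the largest called genes of each list and the 3 genes most like each member over the 6 libraries. Syk, Sfpi1, B2m and Cd247 were named after their values were seen. A few list genes are not reported here by name. Alternatives were other pseudocounts, filters and scalings, fits with 1 term or without trend, and leaving out each library.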

Additional observations from a re-analysis of the deposited data

Results flagged for a closer look

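Several Fc receptor genes differed in direction between the genotypes or between the conditions. Each value is the log2 difference of 1 library pair, and the differences between the pairs were not tested. In LPS against naive cells, Fcgr1 differed by 1.64 in KO and -0.74 in WT cells, Fcgr4 by 1.31 in KO and -0.59 in WT cells, and Fcer1g by -0.46 in KO and 0.61 in WT cells. After rescaling, Fcgr4 was positive in both genotypes (2.07 in KO and 0.10 in WT cells), as was Fcer1g (0.41 in KO and 1.38 in WT cells).

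KO against WT, Fcgr4 differed by -1.22 in naive, 0.68 in LPS and 2.47 in tolerized cells. Fcer1g differed by 0.90 in naive, -0.16 in LPS and -0.10 in tolerized cells. Fcgr3 differed by -0.70 in naive, 0.24 in LPS and -0.13 in tolerized cells.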

How the results depend on the processing

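Of 336 alternative values of the members, 281 kept direction and call, 29 lost a call, 9 gained one and 17 turned direction; none of the 17 was called. The called falls of Fcgr3 and Fcgrt against naive cells were made under every alternative run. Members called in LPS against naive cells (2) were 2 to 4 without a library. In tolerized against LPS cells (3) they were 0 with no filter, 0 after rescaling, 1 with 1 term and 0 to 4 without a library, and in tolerized against naive cells (4) they were 2 with no filter and 2 with 1 term. Between KO and WT (0) they were 0 to 1 without a library. All genes called in LPS against naive cells (6397) were 3946 at 10 FPKM or more. In tolerized against LPS cells (4171) they were 2524 with no filter, 2411 at 10 FPKM or more, 1799 after rescaling and 397 to 4517 without a library. In tolerized against naive cells (2751) they were 1823 with no filter, 1804 at 10 FPKM or more and 1225 to 2464 without a library, and between KO and WT (0) they were 1 at 10 FPKM or more and 0 to 233 without a library. Rescaling moved the split of all called genes in LPS against naive cells to 2209 higher and 2408 lower, and in tolerized against LPS cells to 888 higher and 911 lower.

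Values that turned direction were as follows. In LPS against naive cells, Fcgr2b was 0.67 after rescaling, Fcer1g -0.011 as TPM and Lilra6 0.10 after rescaling. In tolerized against LPS cells, Fcer1g was -0.16 after rescaling. Without 1 library, LPS against naive differences were -0.76 to 1.66 for Fcgr1, -0.31 to 0.027 for Fcgr2b, -1.03 to 1.75 for Fcgr4 and -0.44 to 0.60 for Fcer1g. Likewise, Fcgrt was -0.84 to 0.18 in tolerized against LPS cells and Fcer1g -0.019 to 1.02 in tolerized against naive cells. Between KO and WT, Fcgr3 was -0.42 to 0.053, Fcgr4 -0.27 to 1.57 and Fcer1g -0.13 to 0.40. Past 1.5-fold in place of 2-fold, members were 4 in KO tolerized against KO LPS, 5 in WT LPS against WT naive, 5 in WT tolerized against WT LPS, 4 in KO naive against WT naive and 3 in KO LPS against WT LPS cells; KO naive against WT naive gave 1 with a pseudocount of 5, and KO LPS against WT LPS gave 2 with 0.1. The cause of these shifts was not tested. Of 887 alternative values of list genes, 765 kept direction and call. No paired analysis was possible because each group has 1 library and no number pairs libraries beyond genotype, a term of the fit that the setting with 1 term leaves out. Depth limits Fcgr4 in KO naive cells most, at an implied 79 fragments.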
